A study of Mus musculus with 4 samples.

Results

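Transcripts of 10 SOX genes were followed in 4 chimeric mouse embryos: Sox1, Sox2, Sox3, Sox4, Sox5, Sox8, Sox9, Sox11, Sox12 and Sox21, taken by gene symbol from the 39179 genes of the count tables. All 10 had an Ensembl ID in the tables, and 9 passed the filter on low counts; Sox3 did not. The embryos, of stage E7.75 (late gastrulation, with the neural plate forming), were made by injecting embryonic stem cells (ESCs) into 8-cell host embryos of an ARC x RLZRFP cross. In 2 embryos the ESCs carried doxycycline-inducible FLAG-Lhx1, a tagged LIM homeodomain factor, and in the other 2 they carried the altered form, FLAG-Lhx1-mt (in the labels also with a deletion sign). Both groups had 24 hours of doxycycline through the mother's drinking water (2 mg/mL, with 5% sucrose) and were collected at E8.5, about a day behind in development. Host cells remain in such chimeras, and neither the share of ESC descendants in each embryo nor the number of ESC clones is given in the sources used here. No embryo without doxycycline was analysed here, so both groups carry the treatment and each value compares the 2 forms; which part of the protein is altered is not stated in the sources used here.

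SOX proteins are transcription factors that bind DNA through an HMG box and act with partner proteins, and the family is divided into subgroups by the sequence of that box. The SOXB1 genes Sox1, Sox2 and Sox3 keep neural cells in a progenitor state, and SOX2 also acts with OCT4 in pluripotent cells; Sox21, of the SOXB2 subgroup, counteracts SOXB1 in neural progenitors. The SOXC genes Sox4, Sox11 and Sox12 are widely active in embryonic progenitors and promote neuronal differentiation, the SOXD gene Sox5 assists SOX9 in cartilage, and the SOXE genes Sox8 and Sox9 act in neural crest, glia, cartilage and gonad, with Sox9 also in the node and notochord.

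The box is present in all 10 genes, and its likeness between them bears on whether reads of one could be counted for another. Its coding sequence, 237 bases, is printed for the 3 SOXB1 genes and for Sox9, which hold the 3 called members and the untested one, from the GENCODE vM21 transcripts (GRCm38), 5′ to 3′ on the coding strand, with capitals where a base differs from that of Sox2. The Sox2 box lies in its only exon at chr3:34650536-34650772 (+ strand), the Sox1 box in its only exon at chr8:12396505-12396741 (+ strand) and the Sox3 box in its only exon at chrX:60892771-60893007 (- strand). The Sox9 box is split between exon 1 (chr11:112782891-112783015, + strand) and exon 2 (chr11:112783809-112783920) of 3.
Sox2: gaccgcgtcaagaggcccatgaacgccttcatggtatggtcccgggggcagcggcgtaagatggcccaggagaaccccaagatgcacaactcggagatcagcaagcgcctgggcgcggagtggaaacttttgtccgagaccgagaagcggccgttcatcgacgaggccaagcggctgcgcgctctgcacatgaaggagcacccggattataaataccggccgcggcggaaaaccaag
Sox1: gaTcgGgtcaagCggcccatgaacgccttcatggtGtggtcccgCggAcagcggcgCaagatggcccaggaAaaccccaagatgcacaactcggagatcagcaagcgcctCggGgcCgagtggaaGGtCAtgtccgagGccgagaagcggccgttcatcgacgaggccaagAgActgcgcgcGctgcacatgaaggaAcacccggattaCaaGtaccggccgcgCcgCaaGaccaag
Sox3: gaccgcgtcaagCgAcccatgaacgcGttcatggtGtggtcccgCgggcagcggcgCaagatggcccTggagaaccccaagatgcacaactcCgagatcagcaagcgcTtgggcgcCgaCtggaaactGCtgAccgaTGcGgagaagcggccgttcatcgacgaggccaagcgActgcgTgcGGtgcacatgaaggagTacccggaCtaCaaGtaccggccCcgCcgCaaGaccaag
Sox9: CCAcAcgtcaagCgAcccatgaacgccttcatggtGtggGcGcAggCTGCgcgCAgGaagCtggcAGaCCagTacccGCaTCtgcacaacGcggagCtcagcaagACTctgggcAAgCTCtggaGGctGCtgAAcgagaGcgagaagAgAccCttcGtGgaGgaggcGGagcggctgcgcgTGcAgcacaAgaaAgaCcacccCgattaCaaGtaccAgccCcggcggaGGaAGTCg
The box of Sox1 was 89.5% identical to that of Sox2, that of Sox3 87.8% and that of Sox9 70.9%; Sox21 (87.8%) stood as near to Sox2 as Sox3 did, and Sox5 (60.3%) was the least alike. Over the 45 pairs of the 10 genes, the longest run of identical bases shared by the longest transcripts was 48, between Sox4 and Sox11, and for the SOXB1 pairs it was 32 to 45. Reads were 100 bases long, so no whole read can match the longest transcripts of 2 of these genes without a mismatch. Matches that allow mismatches, or of shortened reads, were not tested.

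In FLAG-Lhx1 embryos Sox9, Sox2 and Sox1 stood above their FLAG-Lhx1-mt levels, and no member was called lower. That is 3 of the 9 tested members called by edgeR's quasi-likelihood test (adjusted p under 0.05 over all 15822 tested genes), all 3 higher, where 6.17% of all tested genes were called, 2.62% higher and 3.55% lower. At an unadjusted p under 0.05 the counts were the same, 3 higher and 0 lower, and DESeq2, which gave an adjusted p for 6 of the 9, and limma-voom called 0 members lower. The median log2 fold of the 9 tested members was 0.42, against 0.01 over all tested genes. Values are CPM (counts scaled to a common library size by edgeR's TMM method), given for replicate 1 and then replicate 2 of a group, and a log2 fold is FLAG-Lhx1 minus FLAG-Lhx1-mt. In whole embryos, fewer cells of a type and less RNA per cell cannot be told apart.

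**Figure D1:**
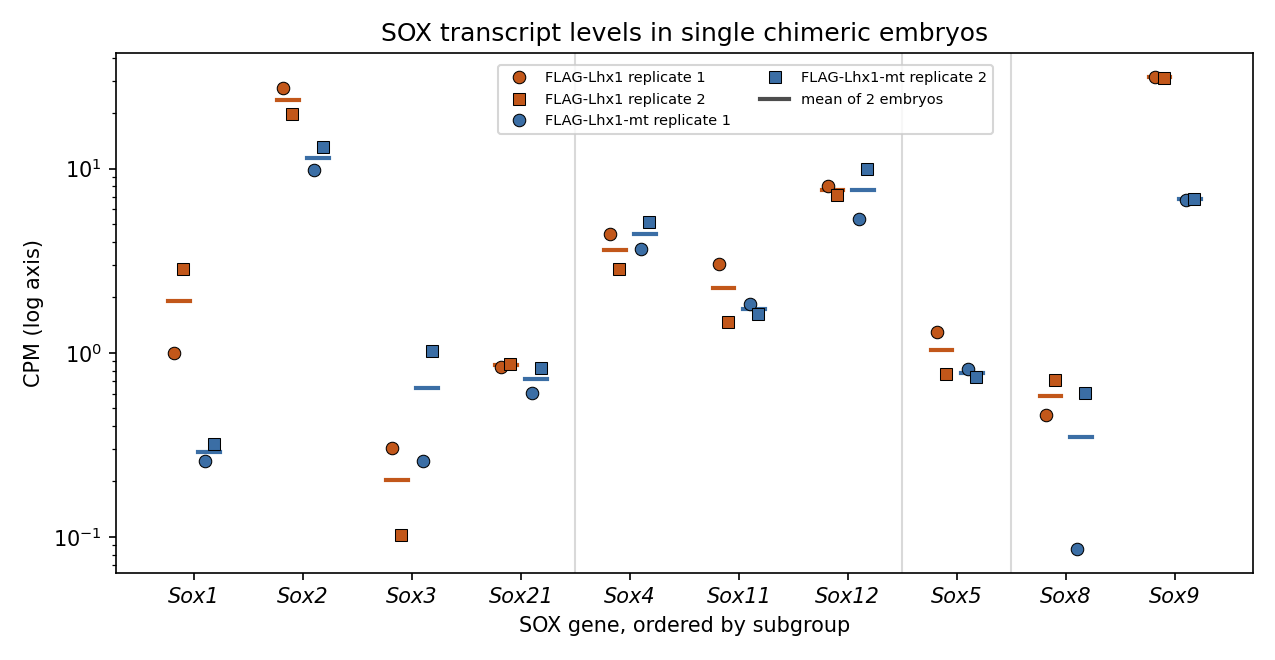
CPM of the 10 SOX genes on a log axis, with 1 point per embryo (circles replicate 1, squares replicate 2) and a bar at the mean of the 2 embryos of a group; grey lines separate the SOXB, SOXC, SOXD and SOXE genes. The 2 groups stand far apart for Sox9 (31.6 and 31.0 CPM against 6.79 and 6.81 CPM), and the points interleave for Sox3, Sox4, Sox5, Sox8, Sox11 and Sox12.

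Sox9 (ENSMUSG00000000567, chromosome 11 at 112782224 to 112787760, + strand, GRCm38), needed for neural crest, cartilage and testis, had 31.6 and 31.0 CPM in the FLAG-Lhx1 embryos, against 6.79 and 6.81 CPM in the FLAG-Lhx1-mt embryos. The embryos of a group were nearly level, and both FLAG-Lhx1 embryos were far above both FLAG-Lhx1-mt embryos. The means were 31.3 ± 0.44 CPM and 6.80 ± 0.01 CPM (SD, n = 2 each). The log2 fold was 2.20 with an SE of 0.20 (adjusted p = 1.42e-05 by edgeR). The fold was 2.16 to 2.23 with any 1 embryo left out.

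Sox2 (ENSMUSG00000074637, chromosome 3 at 34650405 to 34652461, + strand), the SOXB1 gene shared by pluripotent and neural cells, had 27.6 and 19.7 CPM in the FLAG-Lhx1 embryos, against 9.84 and 13.0 CPM in the FLAG-Lhx1-mt embryos. The groups did not overlap, but the gap between them, from 13.0 to 19.7 CPM, was smaller than the distance between the 2 FLAG-Lhx1 embryos. The log2 fold was 1.05 with an SE of 0.23 (adjusted p = 0.0144 by edgeR; 95% interval 0.56 to 1.53). Without FLAG-Lhx1 replicate 1, the highest embryo, the fold was 0.75 and the call was lost. Over the other single-embryo omissions the fold was 0.86 to 1.28.

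Sox1 (ENSMUSG00000096014, chromosome 8 at 12395295 to 12400126, + strand), which in the mouse marks the neural plate, had 26 and 56 counts in the FLAG-Lhx1 embryos, against 6 and 10 counts in the FLAG-Lhx1-mt embryos, or 0.992 and 2.85 CPM against 0.258 and 0.320 CPM. The groups did not overlap, and the 2 FLAG-Lhx1 embryos were far apart, in the opposite order to Sox2. The log2 fold was 2.69 ± 0.66 (SE; edgeR adjusted p = 0.0264; 95% interval 1.27 to 4.10), the largest of the 9 tested members and the second least precise. Without FLAG-Lhx1 replicate 2 the fold was 1.77 and the call was lost (adjusted p = 0.465), as it was with limma-voom (fold 2.38, adjusted p = 0.0665).

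Sox3 (ENSMUSG00000045179, chromosome X at 60891366 to 60893430, - strand), the third SOXB1 gene, was at the edge of detection, with 8 and 2 counts in the FLAG-Lhx1 embryos, against 6 and 32 counts in the FLAG-Lhx1-mt embryos. The groups overlapped, and 32 of the 38 FLAG-Lhx1-mt counts came from replicate 2. Its counts did not pass the filter, so the 4 embryos give no test. With no count filter its log2 fold was -1.67 ± 0.80 (SE; edgeR adjusted p = 0.333). It passed the filter in 3 of the fits with 1 embryo left out, with folds of -2.65 to -1.08 and no call (adjusted p = 0.169 to 0.749). Its transcript had the highest GC content of the longest transcripts of the 10 genes, 66.4%, against 44.8% to 59.9% in the others. The part of base composition in its low count was not tested.

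Sox21 (chromosome 14 at 118233232 to 118237030, - strand), the SOXB2 member, had 0.840 and 0.865 CPM in the FLAG-Lhx1 embryos, against 0.601 and 0.831 CPM in the FLAG-Lhx1-mt embryos. The groups just failed to overlap, and its log2 fold, 0.24 with a 95% interval of -1.03 to 1.51, was not called (adjusted p = 0.865 by edgeR). With Sox1, Sox2 and Sox9 it made 4 of 9 tested members that were higher in both FLAG-Lhx1 embryos than in both FLAG-Lhx1-mt embryos, where 26.4% of all tested genes were. No tested member was lower in both, where 25.8% of all tested genes were; 52.2% of all tested genes showed no overlap one way or the other.

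None of the SOXC genes was called in either direction. At an unadjusted p under 0.05 edgeR had none of them, and DESeq2 and limma-voom called none of them. Sox12 (chromosome 2 at 152393611 to 152398063, - strand) had 8.01 and 7.22 CPM in the FLAG-Lhx1 embryos, against 5.33 and 9.91 CPM in the FLAG-Lhx1-mt embryos, so both FLAG-Lhx1 embryos lay between the 2 FLAG-Lhx1-mt embryos. The log2 fold was -0.01 ± 0.30 (SE; edgeR adjusted p = 0.996), with a 95% interval of -0.64 to 0.63.

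Sox4 (chromosome 13 at 28948919 to 28953713, - strand) had 4.39 and 2.85 CPM in the FLAG-Lhx1 embryos, against 3.65 and 5.14 CPM in the FLAG-Lhx1-mt embryos (log2 fold -0.28 ± 0.34, SE; edgeR adjusted p = 0.699). Gm26735, annotated on the opposite strand, overlaps 54.6% of the exonic sequence of Sox4, and Gm26735 itself had 2 counts over the 4 embryos. Whether reads in the shared bases were given to either gene is not stated in the sources used here, so the level of Sox4 is uncertain. Sox11 (chromosome 12 at 27334264 to 27342574, - strand) had 3.02 and 1.48 CPM in the FLAG-Lhx1 embryos, against 1.85 and 1.63 CPM in the FLAG-Lhx1-mt embryos (0.38 ± 0.45, adjusted p = 0.681). For both genes the spread within FLAG-Lhx1 was larger than the distance between the group means.

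Sox5 and Sox8 were low. Sox5 (chromosome 6 at 143828425 to 144781977, - strand) had 34 and 15 counts in the FLAG-Lhx1 embryos, against 19 and 23 counts in the FLAG-Lhx1-mt embryos, with a log2 fold of 0.42 (SE 0.58, adjusted p = 0.731 by edgeR). Sox8 (chromosome 17 at 25565892 to 25570686, - strand), the SOXE relative of Sox9, had 12 and 14 counts in the FLAG-Lhx1 embryos, against 2 and 19 counts in the FLAG-Lhx1-mt embryos. Its log2 fold of 0.67 ± 0.82 (adjusted p = 0.695) moved to -0.07 without FLAG-Lhx1-mt replicate 1 and to 2.67 without FLAG-Lhx1-mt replicate 2, so no direction can be read from it. Opposite-strand exons overlapped 18.8% of the exonic sequence of Sox21 (Gm4675), 10.6% of that of Sox8 (2810468N07Rik) and 9.3% of that of Sox5 (Sox5os1); for Sox2, Sox3, Sox9, Sox11 and Sox12 no annotated exon of another gene overlaps, and Sox1 shares 1.8% with Gm25239 on its own strand.

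**Figure D2:**
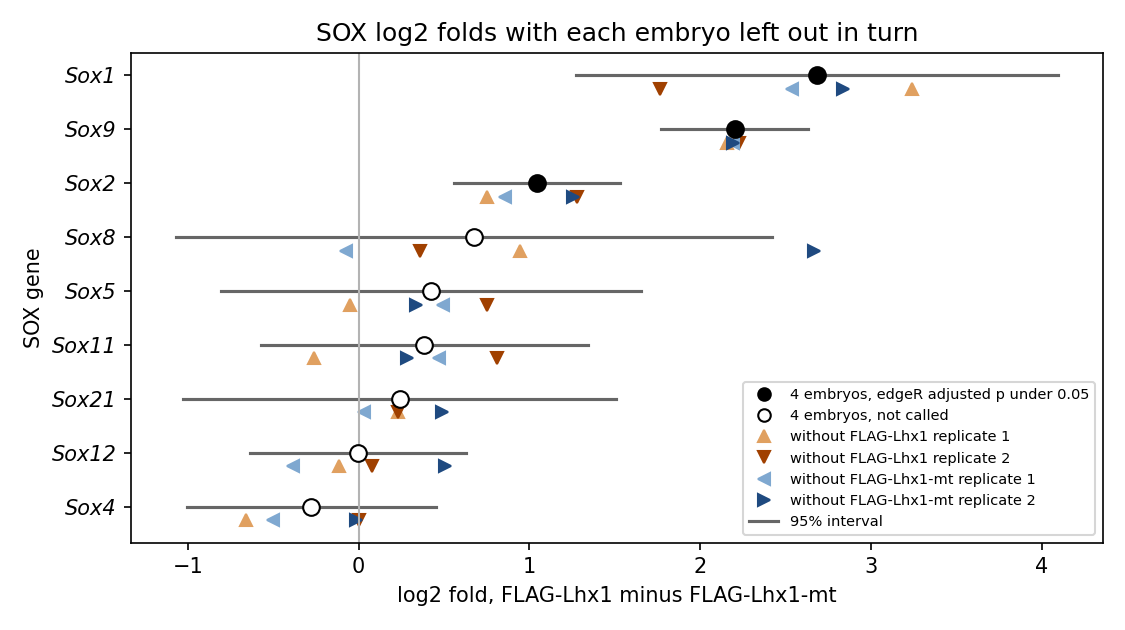
Log2 folds (FLAG-Lhx1 minus FLAG-Lhx1-mt) of the 9 tested SOX genes from all 4 embryos, with 95% intervals as lines and filled circles for an edgeR adjusted p under 0.05; triangles give the fold with each embryo left out. The triangles of Sox9 lie together between 2.16 and 2.23, those of Sox1 run from 1.77 to 3.24 and those of Sox8 from -0.07 to 2.67.

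Per length, the 10 genes differed widely in level. In CPM per kb of exon, Sox2 stood highest in both groups: its mean was 11.5 for FLAG-Lhx1 and 5.56 for FLAG-Lhx1-mt. In FLAG-Lhx1 it was followed by Sox9 at 7.57, Sox12 at 1.71 and Sox4 at 0.755, and the embryos of these neighbours did not overlap. In FLAG-Lhx1-mt Sox12 came second, at 1.71 CPM per kb, and Sox9 next, at 1.64 CPM per kb; the 2 FLAG-Lhx1-mt embryos had 1.20 and 2.22 CPM per kb of Sox12, on either side of Sox9, so this pair has no order there. Sox4 came after these 3 in both groups, and below it every gene overlapped the next in the order in both. The per-length level of Sox5 divides by the exons of all its isoforms, 14376 bases, and is a low estimate.

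Sox2 and Sox9 made up most of the SOX signal per length. Summed over the 10 genes, the level was 24.9 and 20.6 CPM per kb in the FLAG-Lhx1 embryos, against 9.02 and 12.5 CPM per kb in the FLAG-Lhx1-mt embryos, and the ratio of the group means was 2.12. Sox2 held 53.7% and 46.5% of the sum in the FLAG-Lhx1 embryos, against 53.0% and 50.7% in the FLAG-Lhx1-mt embryos, so its share did not separate the groups. Sox9 held 30.7% and 36.3% in the FLAG-Lhx1 embryos, against 18.2% and 13.2% in the FLAG-Lhx1-mt embryos. Together, the 7 members that were not called summed to 3.32 ± 0.52 CPM per kb in FLAG-Lhx1 and 3.50 ± 1.35 CPM per kb in FLAG-Lhx1-mt (SD, n = 2 each); they were grouped after their tests were known.

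**Figure D3:**
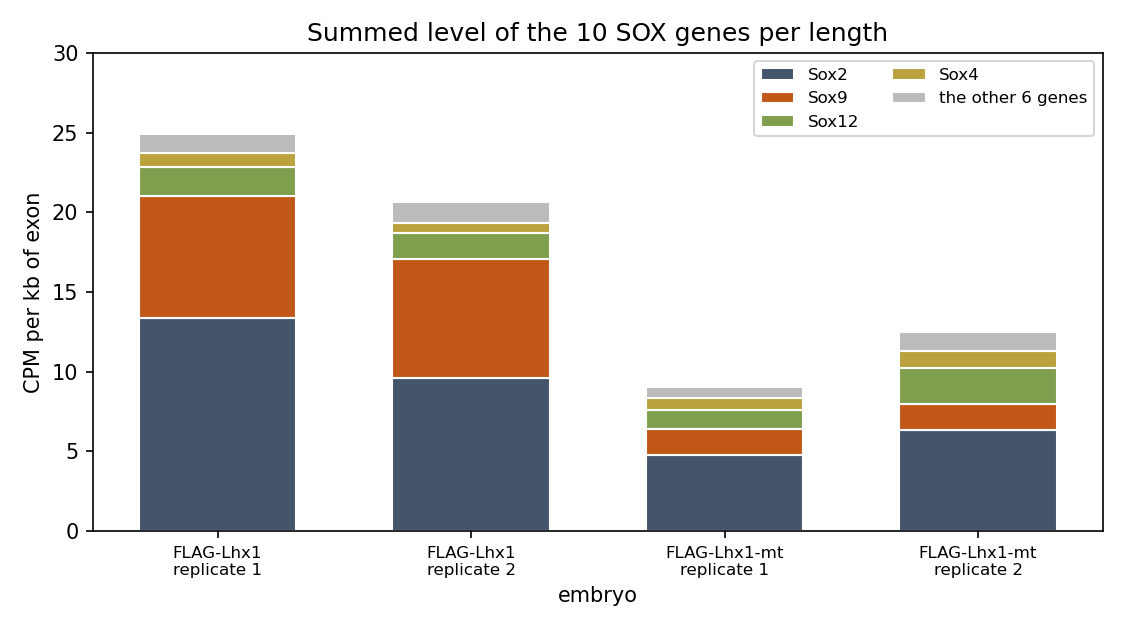
Summed level of the 10 SOX genes in each embryo, in CPM per kb of exon, stacked by gene on an axis from 0; grey is the sum of Sox1, Sox3, Sox5, Sox8, Sox11 and Sox21. The FLAG-Lhx1 columns reach 24.9 and 20.6 and the FLAG-Lhx1-mt columns 9.02 and 12.5, and the Sox2 and Sox9 blocks account for most of the distance.

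Within SOXB1, Sox2 made up 97.4% and 93.8% of the CPM per kb in the FLAG-Lhx1 embryos, against 96.4% and 91.9% in the FLAG-Lhx1-mt embryos. Sox1 held 1.49% and 5.76% in FLAG-Lhx1 and 1.08% and 0.959% in FLAG-Lhx1-mt, and Sox3 held 1.08% and 0.481% in FLAG-Lhx1 and 2.52% and 7.18% in FLAG-Lhx1-mt, in replicates 1 and 2. The shares of the minor SOXB1 genes thus lay on opposite sides, Sox1 higher and Sox3 lower in both FLAG-Lhx1 embryos. The sum is mostly Sox2, which was called higher in FLAG-Lhx1, so a share can fall without a change in its own gene. In CPM the groups overlapped for Sox3, at 0.305 and 0.102 in FLAG-Lhx1 against 0.258 and 1.02 in FLAG-Lhx1-mt. The smallest p of an exact two-sided permutation test on 2 against 2 embryos is 0.333, and the Sox3 shares rest on 2 to 32 counts. Within SOXE, Sox9 held 96.7% and 95.6% in FLAG-Lhx1 and 94.4% and 86.0% in FLAG-Lhx1-mt, with Sox10 at 5 to 9 counts per embryo. Within SOXC, Sox12 led in every embryo, with 54.9% to 67.8%.

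Of the other 10 Sox genes, 6 passed the filter, and 1 of them was called lower and none higher by edgeR (at an unadjusted p under 0.05, 2 were lower and 1 higher; limma-voom called none). DESeq2 gave an adjusted p for 3 of these 6, Sox7, Sox13 and Sox17, and called none of the 3; it gave none for Sox14, so that call has no DESeq2 counterpart. Sox14, the SOXB2 relative of Sox21, had 1 and 2 counts in the FLAG-Lhx1 embryos, against 24 and 19 counts in the FLAG-Lhx1-mt embryos. The ratio of FLAG-Lhx1-mt to FLAG-Lhx1 was 12.0, with an exact 95% counting interval of 3.85 to 60.7 (edgeR adjusted p = 0.0349). This call was lost when either FLAG-Lhx1 embryo was left out (adjusted p = 0.266 without replicate 1, 0.116 without replicate 2) or replicate 1 of FLAG-Lhx1-mt was (0.228), with limma-voom (0.0517) and with offsets for length and GC content (0.0669).

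Sox15, a SOX gene active in embryonic stem cells, had 5 and 0 counts in the FLAG-Lhx1 embryos against 16 and 24 counts in the FLAG-Lhx1-mt embryos, and was not called (edgeR adjusted p = 0.102), but was called lower with unfiltered counts (log2 fold -2.80, adjusted p = 0.0407). The endoderm gene Sox17 was at 7.38 against 9.82 CPM (adjusted p = 0.373). The SOXD genes Sox6 (log2 fold 1.40 ± 0.64, SE, adjusted p = 0.217) and Sox13 (-0.07 ± 0.40, adjusted p = 0.949) and the endothelial gene Sox7 (0.87 ± 0.48, adjusted p = 0.32) were not called either. Without FLAG-Lhx1-mt replicate 2 the fold of Sox7 was 1.67. Sox10, Sox18 and Sox30 had 2 to 10 counts per embryo, and Sry had 0 counts in each, which allows up to 3 counts, or 0.0959 to 0.153 CPM, for counting error only.

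Genes that the SOX factors act with or on, and genes of tissues where they are active, were taken from lists. Of 5 tested POU and PAX partners of SOX2, edgeR called Pou5f1, which encodes OCT4, lower (log2 fold -1.76 ± 0.23, SE, adjusted p = 0.000487) and none higher. At an unadjusted p under 0.05 the higher count was 1, with DESeq2 0 and with limma-voom 1. That gene was Pax6, the partner of SOX2 in the eye, at 3.21 and 3.21 CPM against 1.55 and 0.799 CPM (1.47 ± 0.44, SE; adjusted p = 0.0625 by edgeR and 0.0454 by limma-voom). It was also called with unfiltered counts (edgeR adjusted p = 0.0332) and with the replicate block (1.51, 0.0407). When replicate 1 of FLAG-Lhx1-mt was left out its fold was 1.99. Of 11 tested pluripotency targets of SOX2 and OCT4, 5 were called lower and none higher by edgeR (3 higher at an unadjusted p under 0.05, and none with limma-voom or with DESeq2, which gave an adjusted p for 8 of the 11), with a median log2 fold of -1.50. Tdgf1 (-4.76), Utf1 (-2.97) and Pou5f1 had the smallest p-values among them. Sox2 stood higher in the same embryos in which these genes stood lower.

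Of 17 tested genes of the neural plate and neural progenitors, 9 were called higher and none lower by edgeR, with a median log2 fold of 1.20. At an unadjusted p under 0.05, and with DESeq2 and limma-voom, 0 were lower in this list. The same held for the proneural list, the matrix and midline list and, but for the unadjusted p, the antagonists that follow. DESeq2 gave an adjusted p for 15 of the 17 neural plate genes, 6 of 9 proneural genes, 9 of 13 matrix and midline genes and all 11 antagonists. The smallest p-values were those of the forebrain genes Hesx1 (2.80 ± 0.22, SE, adjusted p = 2.78e-06) and Six3 (2.42 ± 0.30, adjusted p = 0.000289) and of Fabp7, a fatty acid binding protein gene of radial glia (1.36 ± 0.24, adjusted p = 0.00432). Of 9 tested proneural and neuronal genes 4 were called higher and none lower (median 0.97). They included Stmn2 (0.85), a neuronal microtubule regulator, the LIM homeobox gene Isl1 (1.52) and Dcx (1.64), which encodes doublecortin. These are whole-embryo values, and which cells held these transcripts was not tested. Neurog1 and Neurog2, proneural factors that start neurogenesis, stayed below the filter. The call of Stmn2 was lost without FLAG-Lhx1 replicate 2 (0.73), that of Dcx without FLAG-Lhx1 replicate 2 (1.31) and with the offsets for length and GC content (1.43), and that of Isl1 with DESeq2 (adjusted p = 0.187). Leaving out FLAG-Lhx1-mt replicate 1 put the fold of Isl1 at 2.45, and leaving out replicate 2 of that group put it at 0.92.

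Of 17 tested genes of the neural plate border and crest, where Sox9 is also active, 4 were called higher and 1 lower by edgeR, and the median log2 fold was 0.21. At an unadjusted p under 0.05 the counts were 6 higher and 2 lower. DESeq2, which gave an adjusted p for 14 of the 17, called 4 higher and 1 lower, and limma-voom called 4 higher and 0 lower. Snai2, a zinc finger repressor of crest cells, had 6.14 and 6.31 CPM against 1.46 and 0.831 CPM, a log2 fold of 2.46 ± 0.38 (adjusted p = 0.00162 by edgeR). Pax3, a paired box gene of the border and dorsal neural tube, had 1.68 and 3.05 CPM against 0.301 and 0.128 CPM, a log2 fold of 3.48 ± 0.64 (adjusted p = 0.00551). Twist1 (1.06 ± 0.23, adjusted p = 0.0144), a gene of cranial mesenchyme and crest, lost its call without FLAG-Lhx1 replicate 2 (1.02). The member called lower was Foxd3, which is active in pluripotent epiblast as well as in crest and was named after its values were seen: it had 6 and 4 counts against 13 and 116 counts (-3.29 ± 0.81, adjusted p = 0.0256). Without FLAG-Lhx1-mt replicate 2, which holds 116 of these counts, its fold was -1.35 and the call was lost (adjusted p = 0.59), as it was with limma-voom (-2.77) and the length and GC offsets (-2.94).

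Of 13 tested genes of a matrix and midline list drawn up for SOX9, 2 were called higher and none lower by edgeR, and the median log2 fold was 1.12. Whether its midline genes, Shh among them, are targets of SOX9 was not tested. Shh, the midline signal, had 65 and 38 counts against 5 and 0 counts (fitted log2 fold 4.47 ± 0.83, SE, adjusted p = 0.00577), and 8.83 without FLAG-Lhx1-mt replicate 1, which leaves the embryo with 0 counts. Opposite-strand exons of other genes overlap Shh over 28.3% of its exonic sequence, which leaves its level uncertain. Col2a1, the collagen II gene and a direct target of SOX9 in cartilage, had 16.9 and 8.39 CPM against 3.26 and 6.90 CPM (1.31 ± 0.36, adjusted p = 0.0432), and its call was lost without FLAG-Lhx1 replicate 1 (0.68). Of 11 tested antagonists and modulators of SOX activity, Zeb2 (1.08 ± 0.24, adjusted p = 0.0147) and Chd7 (0.56 ± 0.16, adjusted p = 0.0487), a chromatin remodeller that binds SOX2, were called higher and none lower (1 lower at an unadjusted p under 0.05). The fold of Zeb2, which encodes a zinc finger repressor, was 0.68 without FLAG-Lhx1-mt replicate 2. The call of Chd7 was lost when either FLAG-Lhx1 embryo (0.45 without replicate 1, 0.65 without replicate 2) or replicate 2 of FLAG-Lhx1-mt (0.54) was left out. It was also lost with unfiltered counts (0.50), with the length and GC offsets (0.49) and with the replicate block (0.56).

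**Figure D4:**
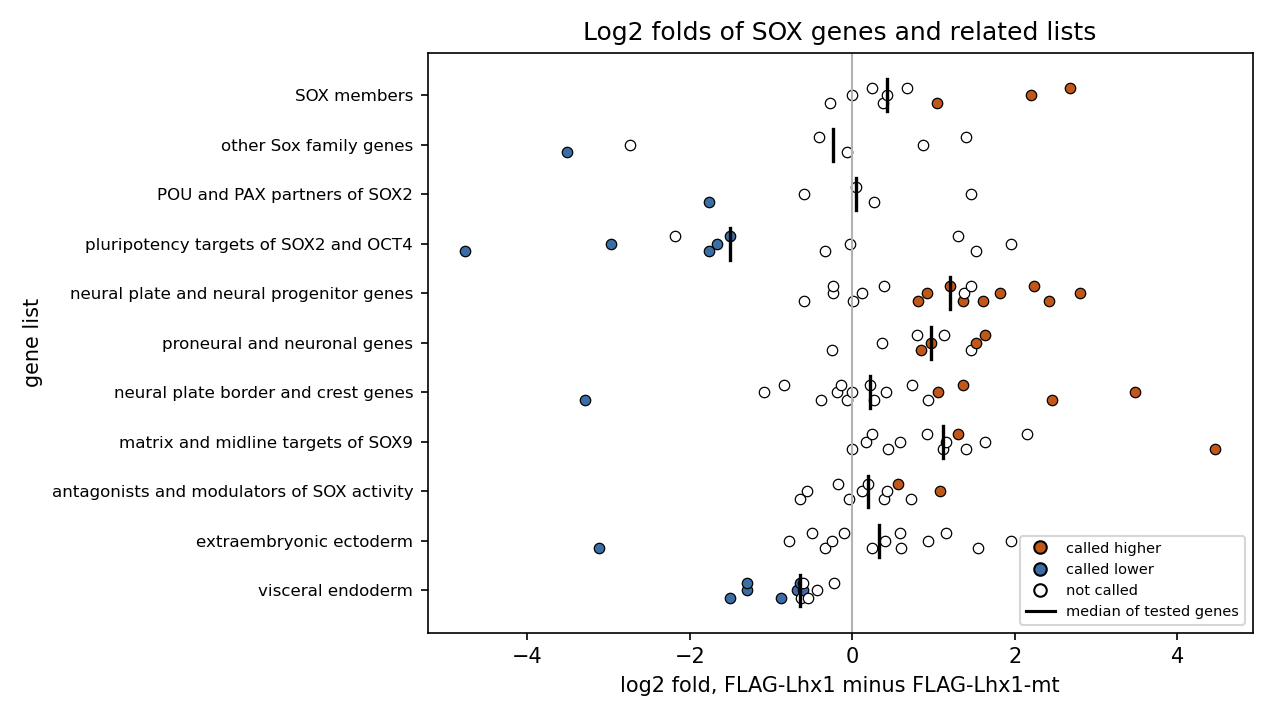
Log2 folds (FLAG-Lhx1 minus FLAG-Lhx1-mt) of the tested genes of the lists shown, 1 circle per gene, with a bar at the median of the list. Circles are orange for genes called higher and blue for genes called lower by edgeR (adjusted p under 0.05). The blood and endothelial, maternal and embryo proper markers are not drawn. The pluripotency targets of SOX2 and OCT4 have their median at -1.50 and the neural plate and neural progenitor genes at 1.20, and the 10 SOX members, of which 9 were tested, at 0.42.

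A search over 8764 protein-coding genes (mean CPM 5 or more) ranked the log2 CPM patterns over the 4 embryos by Euclidean distance after centring. Nearest to Sox9 were the FGF receptor gene Fgfr2 (distance 0.337), the neural receptor phosphatase gene Ptprz1 (0.356) and Six3 (0.358). Those nearest to Sox2 were the kinase gene Pak3 (0.121), Ccdc112 (0.165) and the retinoblastoma gene Rb1 (0.203). Pak3 had 19.2 and 13.5 CPM in the FLAG-Lhx1 embryos, against 6.31 and 8.18 CPM in the FLAG-Lhx1-mt embryos, the same order of embryos as Sox2. With 4 embryos many genes share a pattern, and these distances are a description.

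Values of tissue marker lists, of length and GC content and of Lhx1 follow, whether or not they moved with the groups. The 12 listed visceral endoderm markers summed to 1824 and 2064 CPM in the FLAG-Lhx1 embryos, against 3697 and 3203 CPM in the FLAG-Lhx1-mt embryos, and 7 of 12 were called lower. The 14 extraembryonic ectoderm markers, among them Sox21, summed to 43.8 and 44.1 CPM against 81.7 and 188 CPM. Their median log2 fold was 0.32, and at an unadjusted p under 0.05 edgeR had 2 higher and 2 lower. The lower sums thus do not stand for most of the 14. Of them 1 was called lower, Eomes (-3.12, and -1.94 without FLAG-Lhx1-mt replicate 2), which is also a gene of the primitive streak. Elf5, which defines the extraembryonic ectoderm, was at 0.17 to 0.61 CPM. All 10 markers of the embryo proper passed the filter and summed to 616 and 459 CPM against 885 and 1023 CPM, with 3 called lower: Mesp1 (-1.47), Dnmt3b (-0.99) and T (-0.70). The call of T was lost when FLAG-Lhx1-mt lacked replicate 1 (-0.33) or FLAG-Lhx1 lacked replicate 2 (-0.50), with upper-quartile scaling (-0.64) and with the length and GC offsets (-0.48). By contrast, 4 of 10 blood and endothelial and 7 of 10 maternal markers stayed below it (summed levels 26.0 to 26.3 CPM against 21.5 to 31.8 CPM, and 4.66 to 5.75 CPM against 3.39 to 5.72 CPM). Of these last 2 lists edgeR, DESeq2 and limma-voom called 0 genes (DESeq2 gave an adjusted p for 4 of 6 and 2 of 3), and 1 gene of each was higher at an unadjusted p under 0.05: Pecam1 (1.63, adjusted p = 0.184) and Cryab (1.16, adjusted p = 0.189). Pecam1 was at 0.99 when replicate 1 of FLAG-Lhx1-mt was left out, at 1.03 when replicate 2 of FLAG-Lhx1 was, and at 2.98 when replicate 2 of FLAG-Lhx1-mt was. The part of any of these tissues in the SOX values was not tested. Over all tested genes the log2 fold correlated with exon length (Spearman's rho = 0.219) and with GC content (rho = -0.163), genes not being independent; with offsets for both Sox9, Sox2 and Sox1 stayed called, at 2.29, 1.21 and 2.84. Lhx1 itself had 114 to 129 CPM in FLAG-Lhx1 and 98.5 to 126 CPM in FLAG-Lhx1-mt, and since counts per gene pool transgene and endogenous reads, this does not check the labels.

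In the 250 bases before the RefSeq start (GRCm38.p6), which were at hand for 8 of the 10 genes (not Sox3 or Sox9), the SOX motifs ACAATGG and AACAAAG and the homeodomain core TAATTA were searched on both strands. Sox5 held ACAATGG 154 bases before its RefSeq start, and no other match was found in the 8 windows. This Sox5 start lies inside the gene as GENCODE has it, not at its 5′ end. The Sox1 window lies mostly within the GENCODE exon, so neither window is the sequence before the GENCODE start. The Sox2 window ends at 34649994, short of the GENCODE start at 34650405, and the Sox11 window also ends short of its GENCODE start. Those of Sox4 and Sox12 reach a few bases into the GENCODE exon. Over 32851 windows of the same length, 3.02% held ACAATGG, 5.03% AACAAAG and 4.84% TAATTA. The windows of Sox1 and Sox2 were 71.2% and 72% GC, with 29 and 27 CG steps, against a median of 52.4% and 6 over all windows. A match is a description, and distal elements lie outside these windows.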

How the data were processed

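For each of the 4 embryos the authors deposited raw counts by Ensembl gene ID. The submitters' processing notes name STAR, Subread's featureCounts, GRCm38 and mm10; the sources used here give no version, annotation release or strand setting. Per the labels' protocols, RNA of individual embryos went through 10 cycles of cDNA pre-amplification (Geo-seq) and Nextera XT. Reads were 100 bp and paired, without molecular identifiers, so amplified copies count as reads. The exact counting interval of Sox14 and the limit for Sry cover counting error only. The intervals of the edgeR fits also include spread between embryos. Totals were 21267116 to 30434442 counts per embryo, and a count of 3 equals 0.0959 to 0.153 CPM.

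Symbols, positions and exon lengths came from GENCODE vM21, which held 96.2% of the 39179 IDs; IDs outside it took 0.179% to 0.210% of counts. Genes were filtered with filterByExpr (minimum count 10, total 15; 15822 left), scaled by TMM and compared between FLAG-Lhx1 and FLAG-Lhx1-mt with edgeR 4.0.16 (quasi-likelihood F test, group only; R 4.3.3), with Benjamini-Hochberg adjustment over all tested genes and calls at an adjusted p under 0.05. Standard errors come from the fold and its F statistic (fold divided by root F), and 95% intervals use the test's degrees of freedom (2 residual, 13.4 prior). The p-values of the fits to all 4 embryos rest on the spread between individual embryos, 2 in each group. For each gene that spread was moderated by the spread of other genes, which carried most of the degrees of freedom. The procedure was tested on simulated data. Alternatives were DESeq2 1.42.0, limma-voom (limma 3.58.1), RLE and upper-quartile scaling, no filter, length and GC offsets, a replicate block and leaving out each embryo. Leaving out 1 embryo sets 1 embryo against 2, so the group of 1 adds no spread of its own. Adjusted p-values and numbers of calls from those fits are therefore not comparable with those from all 4 embryos, and can be smaller or larger on less data.

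The SOX genes and the lists were chosen with earlier results of these data known. All Sox genes are named; of other lists at most the 3 called genes with the smallest p, or 1 where none was called, beyond which Foxd3, Pax6, Elf5, Neurog1, Neurog2, Lhx1 and the overlapping genes were added after the values were seen. Nearest patterns used log2 CPM with a prior count of 2. Lists share genes: Pou5f1 is on 2, and the neural plate and partner lists share 2.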

Additional observations from a re-analysis of the deposited data

How the results depend on the processing

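Over all genes 976 were called, 616 with the length and GC offsets and 521 to 1648 with 1 embryo left out: 628 and 521 when FLAG-Lhx1 lost its replicate 1 or 2, and 1648 and 1553 when FLAG-Lhx1-mt did. Higher genes made up 42.5% of calls, 54.4% with upper-quartile scaling and 53.6% with the offsets. The number of SOX members called higher was 3, but 2 with limma-voom and 2 to 3 with 1 embryo left out; the number called lower was 0 in every setting run. The sign changed only for Sox genes that were not called, and the cause was not tested. The log2 fold of Sox12, -0.01, was 0.043 with upper-quartile scaling, 0.032 with limma-voom, 0.15 with the offsets, 0.060 with the replicate block and -0.38 to 0.50 with 1 embryo left out. Leaving out 1 embryo moved Sox11 from -0.26 to 0.81, Sox5 from -0.051 to 0.75, Sox4 from -0.66 to 0.0032, Sox8 from -0.074 to 2.67 and Sox13 from -0.38 to 0.33; Sox13 was 0.087 with the offsets. The labels do not say that replicate numbers mark a litter or day, and same-numbered embryos did not deviate together (correlation 0.016). With the replicate number as a block 1138 genes were called, and Sox9, Sox2 and Sox1 stayed called (2.20, 1.04 and 2.61). Depth limits Sox1, Sox3, Sox5, Sox8 and Sox21, which had 56 counts or fewer in each embryo.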
